A study of Homo sapiens with 16 samples.

Results

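The MYC family and the MAX network were examined in LNCaP cells, an androgen-responsive human prostate cancer line, as 10 of the 60676 gene identifiers in the count tables. The members were taken by gene name, with no measured value in the rule: MYC, MYCN, MYCL, MAX, MXD1, MXD3, MXD4, MXI1, MNT and MLX. Each name matched 1 Ensembl identifier. Parental cells (WT) were compared with RB-p53 double knockout cells (DKO), which had been made with CRISPR-Cas9. For 6 days each genotype received either enzalutamide (EZ), an antiandrogen used in prostate cancer, at 50 µM, or the matching volume of its solvent, DMSO. The groups WT DMSO, WT EZ, DKO DMSO and DKO EZ held 4 libraries each, made from total RNA after removal of ribosomal RNA. Whether the DKO cells were 1 clone or several, and whether replicates came from separate cultures, is not given in the sources used here, so the p-values below cover only the spread among these libraries, which may be technical.

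MYC proteins bind E-box DNA as dimers with MAX and activate genes of ribosome production, nucleotide synthesis and cell growth. MXD proteins and MNT compete for MAX, occupy the same E-boxes and recruit SIN3-HDAC corepressors. MLX pairs with some of these repressors and with the glucose-sensing factors MLXIP (MondoA) and MLXIPL (ChREBP). In prostate cancer MYC is often gained in adenocarcinoma and MYCN in neuroendocrine disease, and RB restrains the E2F factors that act beside MYC on growth genes.

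Promoter windows are shown first because the network's own binding motif lies in some of them. Windows of 250 bases upstream of the annotated starts were read from RefSeq (GRCh38.p14) for 9 of the 10 members, 12 windows in all. The member left out was MYC, so no MYC promoter was searched for either motif. The E-box CACGTG, which reads the same on both strands, was found in 3 of the 12 windows, those of MXD4, MNT and MLX, and in 6.35% of 35114 windows of the same length over all genes. The E2F letters TTTGGCGC, TTTCCCGC, TTTGCCGC and TTTCGCGC, searched on both strands, were found in 1 member window, that of MYCN, where 2 matches overlap, and in 2.79% of all windows. Neither search overlaps the other's letters. A match is a description of the letters and not of binding. The stretches outside annotated exons are printed 5′ to 3′ on the gene's strand, with the matches in capitals. They lie at chr2:15940352-15940549 (plus strand) for MYCN, chr4:2262295-2262359 (minus) for MXD4, chr17:2401119-2401310 (minus) for MNT and chr17:42566850-42567067 (plus) for MLX.
MYCN: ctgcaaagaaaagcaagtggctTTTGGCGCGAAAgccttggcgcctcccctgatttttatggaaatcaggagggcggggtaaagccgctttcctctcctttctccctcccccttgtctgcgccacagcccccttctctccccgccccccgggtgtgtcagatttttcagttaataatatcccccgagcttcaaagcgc
MXD4: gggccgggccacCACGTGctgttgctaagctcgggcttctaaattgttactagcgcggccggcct
MNT: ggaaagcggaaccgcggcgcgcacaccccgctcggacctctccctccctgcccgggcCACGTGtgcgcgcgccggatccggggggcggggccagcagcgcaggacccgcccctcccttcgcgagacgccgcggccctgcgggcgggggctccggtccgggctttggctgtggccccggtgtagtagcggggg
MLX: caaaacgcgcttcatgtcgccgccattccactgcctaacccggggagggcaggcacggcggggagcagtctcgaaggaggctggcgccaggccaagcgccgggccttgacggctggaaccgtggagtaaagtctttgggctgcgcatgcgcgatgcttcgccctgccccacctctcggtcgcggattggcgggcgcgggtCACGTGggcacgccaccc
The E-box began 238 bases upstream of the start in MXD4, 193 in MNT and 50 in MLX. The E2F letters of MYCN began 176 and 172 bases upstream.

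Library totals ran from 11823438 to 47678648 counts. Levels are CPM, counts relative to the library size in the usual unit, with library sizes scaled by edgeR's trimmed mean of M-values (TMM). RB1, 1 of the 2 targeted genes, ranged from 95.6 to 128 CPM in the 8 WT libraries and from 9.04 to 13.4 CPM in the 8 DKO libraries. The luminal markers of this line summed to 2385 to 5257 CPM per library, and the 3 leukocyte markers to at most 0.182 CPM. Libraries fell into 2 sets by the share of counts taken by RN7SL1, the RNA of the signal recognition particle. It was 0.220% to 0.621% in 6 libraries (replicate 1 in each WT group, replicates 1 and 2 in each DKO group) and 0.0481% to 0.117% in the others. Means of 8 proliferation markers were lowest in WT EZ replicate 1 (3.53 log2 CPM), WT DMSO replicate 4 (4.06) and DKO EZ replicate 1 (4.42), against 5.66 to 7.05 in the other 13 libraries. A change was called at an adjusted p under 0.05 in edgeR's quasi-likelihood test, with Benjamini-Hochberg adjustment over 21810 genes. Of the 10 members 9 entered that test, and MYCN did not reach the minimum of counts.

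Per kilobase of exon, MYC had the highest level of the 10 members in all 4 groups. Its mean level was 66.4 ± 9.71 CPM per kilobase (SD, n = 4) in WT DMSO and 77.6 ± 22.3 in WT EZ. In DKO DMSO it was 52.9 ± 7.90 and in DKO EZ 38.2 ± 4.74. MYC thereby held 47.5% of the summed per-length level of the network in WT cells with DMSO and 49.3% with the drug, and 46.0% and 36.7% in DKO cells. MLX, MXI1, MXD4 and MAX followed, between 10.8 and 20.2 CPM per kilobase, and their libraries overlapped from one to the next in every group. MXD1, MNT and MYCL came after them, between 2.28 and 4.67 CPM per kilobase, then MXD3 between 0.737 and 0.948, and MYCN stood last. MYCL was the eighth of the 10 in both WT groups, the sixth in DKO DMSO and the seventh in DKO EZ. With the longest transcript in place of all exons MYC remained the first, at 84.2 CPM per kilobase in WT DMSO and 48.5 in DKO EZ, and MYCL was the sixth in both DKO groups. On that length MLX stood at 28.9 CPM per kilobase in WT DMSO (17.6 over all exons), MXD4 at 25.1 (15.03), MNT at 5.47 (3.13) and MXD3 at 1.68 (0.743).

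**Figure D1:**
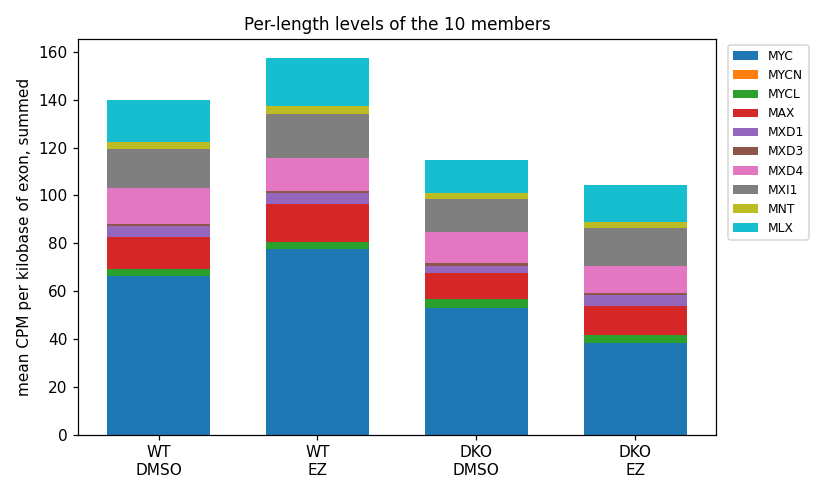
Mean CPM per kilobase of exon of the 10 members, stacked for each group of 4 libraries (vertical axis from 0, 1 colour per gene, no error bars). The MYC segment is 66.4 CPM per kilobase in WT DMSO and 38.2 in DKO EZ, while the MYCN segment is too thin to see.

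MYC, the broadly expressed activator of the family on chromosome 8, was lower in DKO than in WT cells in the presence of EZ. Its levels in WT EZ replicates 1 to 4 were 292, 200, 155 and 286 CPM, and in DKO EZ 125, 127, 96.5 and 110 CPM. Every DKO EZ library was below every WT EZ library. The fitted log2 change was -1.02 ± 0.18 (SE), a 2.03-fold lower level, with an edgeR adjusted p of 6.34e-04. The highest adjusted p on leaving out any 1 of the 16 libraries was 0.00637. The spread was widest in WT EZ, where replicates 1 and 4 stood far above 2 and 3. In bulk RNA, fewer cells with MYC transcripts and less MYC RNA per cell cannot be told apart.

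In DMSO the difference was smaller. WT DMSO libraries held 226, 222, 169 and 180 CPM of MYC, and DKO DMSO libraries 188, 167, 134 and 147 CPM. The highest DKO library reached into the WT range. The log2 change of -0.33 ± 0.18 did not pass (edgeR adjusted p = 0.232). Within libraries of high RN7SL1 share the DKO to WT difference was -0.35 in DMSO and -1.21 in EZ, and within the other libraries -0.43 and -1.0. On leaving out replicate 1 of both EZ groups the difference in EZ was -0.94 (edgeR adjusted p = 0.00857).

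Under EZ the 4 DKO libraries all held less MYC than the 4 DKO DMSO libraries. By replicate number the log2 changes were -0.59, -0.39, -0.47 and -0.41. The fit with 1 mean per group gave -0.47 ± 0.18 and did not pass (edgeR adjusted p = 0.240). Replicate numbers tracked shared deviations between DMSO and EZ libraries of a genotype, and with that number as a block the change was -0.47 ± 0.12 (edgeR adjusted p = 0.0359). That blocked fit called 7.75% of all genes, against 1.48% without the block. In WT cells MYC was higher in EZ in replicates 1 and 4 and lower in 2 and 3, and the change of 0.23 ± 0.18 did not pass (edgeR adjusted p = 0.617).

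Whether the drug acted differently on MYC in the 2 genotypes was tested as an interaction, the drug change in DKO minus that in WT. For MYC it was -0.69 ± 0.25, with an unadjusted p of 0.0143 and an edgeR adjusted p of 0.9999, and 0.213 with the block within genotype, a fit that called 0.179% of all genes. The interaction passed for 0 of 21810 genes (0.0%) in edgeR, although 648 genes (2.97%) had an unadjusted p under 0.05, and DESeq2 called 10. The larger MYC difference in EZ than in DMSO is the same quantity and was therefore not established as a difference.

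**Figure D2:**
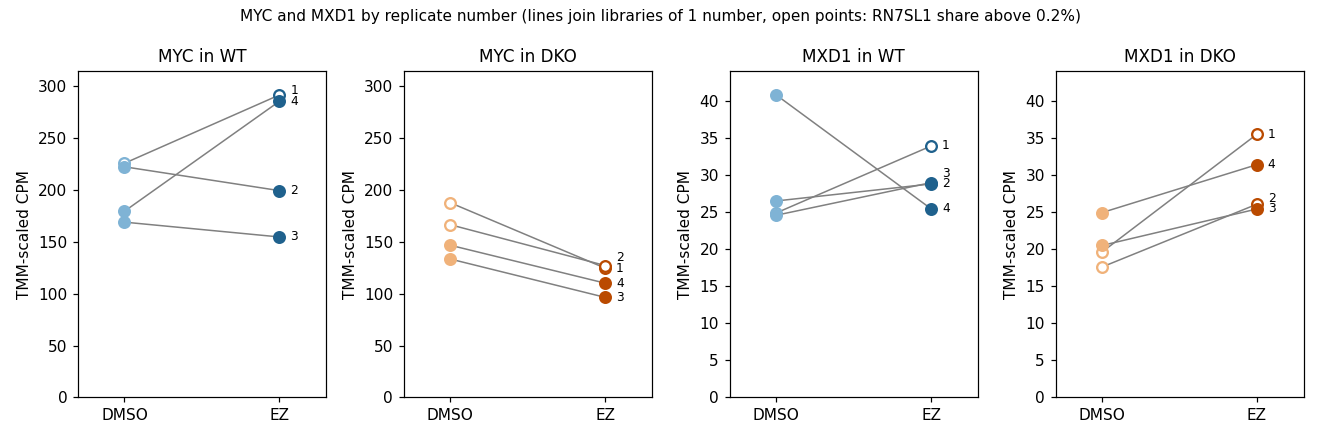
TMM-scaled CPM (vertical axes from 0) of MYC and MXD1 in DMSO and EZ libraries of each genotype, with lines joining libraries of 1 replicate number and open points for libraries with an RN7SL1 share above 0.2%. All 4 DKO lines slope down for MYC and up for MXD1, while WT lines cross.

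MYCN (chr2:15940564-15947007), the neural member of the family, had 0 counts in all 12 libraries of WT DMSO, WT EZ and DKO DMSO. DKO EZ held 3 counts in all, 1 in replicate 3 and 2 in replicate 4. A sum of 0 over a group allows up to 3 counts, which is 0.0264 CPM in WT DMSO, 0.0275 in WT EZ and 0.0282 in DKO DMSO, counting error only. All 4 groups were thus at or under that floor, and no fold is given. The E2F letters upstream of the gene, printed above, were present beside a transcript at the limit of detection.

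MYCL (chr1:39895426-39902256, minus strand), a family member first known from lung cancer, was higher in DKO than in WT cells in DMSO. WT DMSO libraries held 16.6, 13.5, 12.3 and 11.6 CPM, and DKO DMSO libraries 18.6, 18.3, 20.7 and 18.9 CPM. The groups did not overlap. The log2 change was 0.50 ± 0.14, a 1.42-fold higher level (edgeR adjusted p = 0.0205). It no longer passed without WT DMSO replicate 3 (0.0542) or DKO DMSO replicate 3 (0.0623). Within the libraries of high RN7SL1 share the difference was 0.16, from 1 WT library and 2 DKO libraries, and within the others 0.66.

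With EZ the MYCL libraries of the genotypes overlapped, at 18.3, 13.0, 12.5 and 13.3 CPM in WT and 18.1, 16.5, 19.4 and 16.3 CPM in DKO. WT EZ replicate 1 stood above the other 3 WT EZ libraries. The log2 change of 0.30 ± 0.14 did not pass (edgeR adjusted p = 0.159), and without that library it was 0.46 (0.0361). With library totals in place of TMM scaling it was 0.56 and passed (edgeR adjusted p = 0.00927). EZ against DMSO gave 0.08 ± 0.14 in WT and -0.13 ± 0.14 in DKO, with edgeR adjusted p-values of 0.859 and 0.808. In DKO all 4 replicate pairs were lower in EZ.

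MAX (chr14:65006174-65102695, minus strand), the obligate partner of MYC and a partner of the repressors, did not pass in any comparison. WT DMSO libraries held 52.2, 54.1, 51.3 and 83.8 CPM and DKO DMSO libraries 39.8, 42.2, 46.6 and 62.0 CPM. Replicate 4 was the highest of each group. WT EZ libraries held 52.7, 71.0, 72.0 and 86.1 CPM and DKO EZ libraries 38.0, 55.7, 53.8 and 64.9 CPM, and these ranges overlapped too. DKO against WT gave -0.34 ± 0.20 without the drug and -0.41 ± 0.20 with it (edgeR adjusted p = 0.269 and 0.169). Replicate number was not shown to pair libraries across the genotypes.

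MLX (chr17:42567068-42573239), the partner shared with MondoA and ChREBP, was lower in DKO than in WT cells in EZ. WT EZ libraries held 91.5, 82.9, 77.3 and 92.5 CPM and DKO EZ libraries 56.5, 61.7, 66.5 and 77.0 CPM. The highest DKO library lay just below the lowest WT library. The log2 change was -0.39 ± 0.12, a 1.31-fold lower level (edgeR adjusted p = 0.0248). It was lost on leaving out any 1 of 6 of the 8 EZ libraries (WT replicates 1, 2 and 4, DKO replicates 1, 2 and 3), with adjusted p-values up to 0.112. Within libraries of high RN7SL1 share the difference was -0.63, and within the others -0.23.

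In DMSO, MLX was at 76.3, 72.4, 66.9 and 83.5 CPM in WT and 50.4, 58.6, 60.6 and 68.1 CPM in DKO, with 1 DKO library above the lowest WT library. The change of -0.33 ± 0.12 did not pass (edgeR adjusted p = 0.0618). It passed with upper-quartile scaling (-0.27, edgeR adjusted p = 0.0203) and without DKO DMSO replicate 4 (0.0312) or DKO EZ replicate 4 (0.0476), and was -0.12 with library totals (0.393). MLX was higher in EZ than in DMSO in all 8 replicate pairs, with fitted changes of 0.20 ± 0.12 in WT and 0.14 ± 0.12 in DKO that did not pass (edgeR adjusted p = 0.449 and 0.701). MLX shares 18.1% of its exon length with PSMC3IP on the opposite strand, and the strand setting of the counting is not given in the sources used here. PSMC3IP was at 1.88 to 5.13 CPM in WT and 4.13 to 7.77 CPM in DKO libraries, and its part in the MLX difference was not tested.

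MNT (chr17:2384060-2401118, minus strand), the broadly expressed repressor that balances MYC, was lower in DKO than in WT cells in DMSO. WT DMSO libraries held 31.4, 24.1, 26.0 and 27.9 CPM and DKO DMSO libraries 20.5, 21.3, 18.7 and 19.1 CPM. The 4 DKO libraries lay below the 4 WT libraries. The log2 change was -0.46 ± 0.12, a 1.37-fold lower level (edgeR adjusted p = 0.0146). Without WT DMSO replicate 1 the adjusted p was 0.114, and without WT DMSO replicate 4 it was 0.0738. The difference was -0.59 within libraries of high RN7SL1 share and -0.46 within the others.

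The EZ libraries of MNT overlapped between genotypes, at 31.7, 26.2, 22.4 and 28.6 CPM in WT and 25.6, 23.3, 21.9 and 20.6 CPM in DKO. The change of -0.26 ± 0.12 did not pass (edgeR adjusted p = 0.164), and with the RN7SL1 set as a covariate it was -0.31 and passed (0.0351). In DKO all 4 pairs were higher in EZ, by 0.20 ± 0.12 in the fit (edgeR adjusted p = 0.559). An antisense RNA overlaps 12.2% of the exon length of MNT, so reads of both strands could be mixed.

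MXD1 (chr2:69897688-69942945), a repressor associated with differentiation, was higher in every DKO EZ library than in every DKO DMSO library. DKO DMSO libraries held 19.7, 17.6, 20.5 and 25.0 CPM and DKO EZ libraries 35.6, 26.1, 25.5 and 31.4 CPM. All 4 replicate pairs were higher in EZ. The log2 change of 0.52 ± 0.17 had an unadjusted p of 0.00753 and did not pass (edgeR adjusted p = 0.160, and 0.0770 with the block within genotype). WT libraries held 24.9, 26.5, 24.6 and 40.9 CPM in DMSO and 34.0, 28.8, 29.0 and 25.5 CPM in EZ, a change of 0.00 ± 0.17 whose sign turned with the scaling. The WT DMSO mean rested on replicate 4.

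DKO against WT for MXD1 gave -0.50 ± 0.17 in DMSO (edgeR adjusted p = 0.0512) and 0.02 ± 0.17 in EZ (0.961). Leaving out WT DMSO replicate 4 reduced the DMSO difference to -0.25, and leaving out DKO DMSO replicate 4 took it to -0.60 (edgeR adjusted p = 0.0272). It also passed without WT DMSO replicate 3, at -0.55 (0.0450). The interaction was 0.51 ± 0.24, with an unadjusted p of 0.0475 and an adjusted p of 0.9999 in edgeR. MXD1 and MYC were the only 2 of the 9 tested members with an unadjusted interaction p under 0.05, which 2.97% of all genes had. Neither passed after adjustment, so no opposite drug response of the 2 genes was established.

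MXD3 (chr5:177301461-177312757, minus strand), a repressor linked to S phase, ranged only from 1.54 to 6.28 CPM. Its lowest library was WT DMSO replicate 4, and its fitted changes, from -0.16 for the drug in DKO to 0.35 for DKO against WT in DMSO, had SEs of 0.33 and did not pass. MXD3 shares 18.0% of its exon length with RAB24 and 22.5% with PRELID1. Those neighbours were at 0.938 to 2.45 and 6.53 to 16.2 CPM, so the MXD3 values are uncertain.

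MXD4 (chr4:2247432-2262294, minus strand), a repressor associated with differentiated cells, held 97.0, 103, 116 and 109 CPM in WT DMSO and 65.8, 103, 109 and 117 CPM in WT EZ. DKO libraries held 64.1, 71.7, 110 and 118 CPM in DMSO and 38.0, 76.6, 92.4 and 107 CPM in EZ. Within each group the libraries of high RN7SL1 share were the lowest. No MXD4 change passed, with log2 changes from -0.33 ± 0.27 for DKO against WT in EZ to -0.11 ± 0.27 for EZ in WT. The DKO to WT difference in DMSO was -0.52 within libraries of high RN7SL1 share and 0.07 within the others.

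MXI1 (chr10:110207605-110287365), also called MXD2, ranged from 61.8 to 94.8 CPM in WT DMSO and from 72.7 to 103 in WT EZ. It ranged from 58.0 to 82.0 CPM in DKO DMSO and from 64.7 to 81.5 in DKO EZ. All pairs of groups overlapped. The changes were 0.20 ± 0.15 and 0.17 ± 0.15 for the drug in WT and DKO, and -0.19 ± 0.15 and -0.22 ± 0.15 for DKO against WT in DMSO and EZ. None passed, and both genotype differences turned to 0.03 with library totals in place of TMM scaling.

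**Figure D3:**
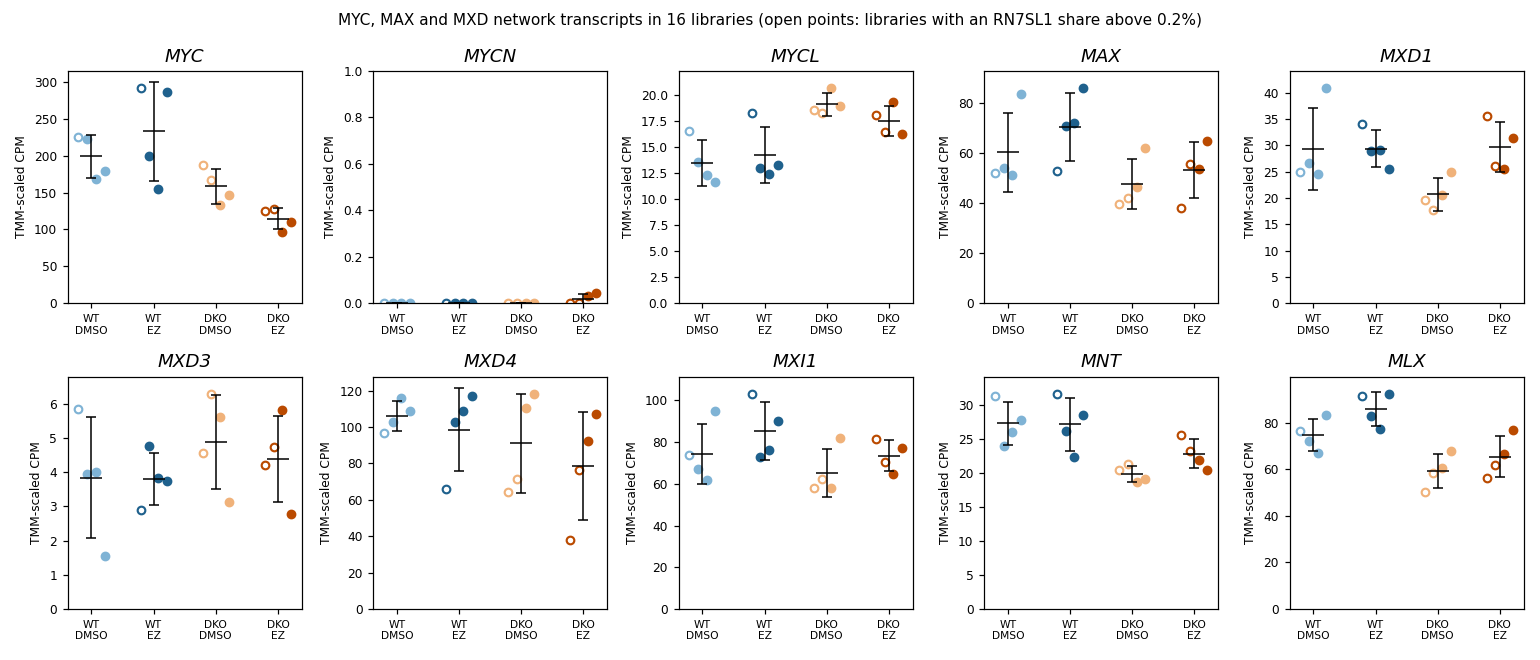
TMM-scaled CPM (vertical axes from 0) of the 10 members in each library, by group, with the mean and SD of 4 libraries as lines and open points for libraries with an RN7SL1 share above 0.2%. DKO EZ libraries lie at 96.5 to 127 CPM of MYC, below the 155 to 292 CPM of WT EZ, and MYCN stays at or near 0.

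Counted over the network, EZ in WT cells moved 0 of the 9 tested members past the threshold in edgeR, with 0 at an unadjusted p under 0.05 and 0 in DESeq2. In the same comparison 3.32% of all 21810 genes were called and 15.6% had an unadjusted p under 0.05. No member separated the WT EZ from the WT DMSO libraries, which 9.59% of all genes did. In DKO cells the drug likewise moved 0 of 9, with 2 (MYC and MXD1) at an unadjusted p under 0.05 and 0 in DESeq2. Of all genes 1.48% were called and 13.3% had an unadjusted p under 0.05. MYC alone was lower and MXD1 alone was higher in that comparison with no overlap between groups, a pattern shown by 4.41% and 5.2% of all genes. The median log2 change of the members was 0.08 in WT and 0.14 in DKO, beside -0.03 and 0.01 over all genes.

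DKO against WT in DMSO called 2 of 9 members (MYCL higher, MNT lower), where 18.6% of all genes were called, 8.91% higher and 9.7% lower. The comparison in EZ called 2 of 9 (MYC and MLX, both lower), where 20.7% were called and 11.4% were lower. Over both directions these shares of members lie near the background. The same 2 members of each comparison were those without overlap. Over all genes 10.8% were higher and 10.9% lower without overlap in DMSO, and 13.4% were lower in EZ. In DMSO 7 of the 9 members had a negative change and in EZ 6 of 9, with medians of -0.33 and -0.26 beside -0.06 and -0.01 over all genes. With library totals MXI1 turned positive in both comparisons and MNT in EZ.

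That scaling also moved the median of all genes to 0.14 in DMSO and 0.23 in EZ. Of the calls in DMSO, 1943 were higher and 2115 lower with TMM, 3479 and 1082 with library totals. In EZ they were 2027 and 2481 with TMM, 3966 and 1183 with library totals, and 2703 and 1952 with upper-quartile scaling. For the drug in WT the split was 491 higher and 233 lower with TMM, 447 and 361 with totals, and 513 and 401 with upper quartiles. MYC in EZ stayed lower and called under each of these, at -0.76 with library totals and -0.89 with upper quartiles. MYCL in DMSO stayed higher and called, at 0.71 with library totals, whereas MNT was at -0.25 and did not pass (edgeR adjusted p = 0.150). MLX in EZ was at -0.15 with library totals and did not pass (edgeR adjusted p = 0.254), and at -0.29 with upper quartiles, where it passed (0.0122).

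**Figure D4:**
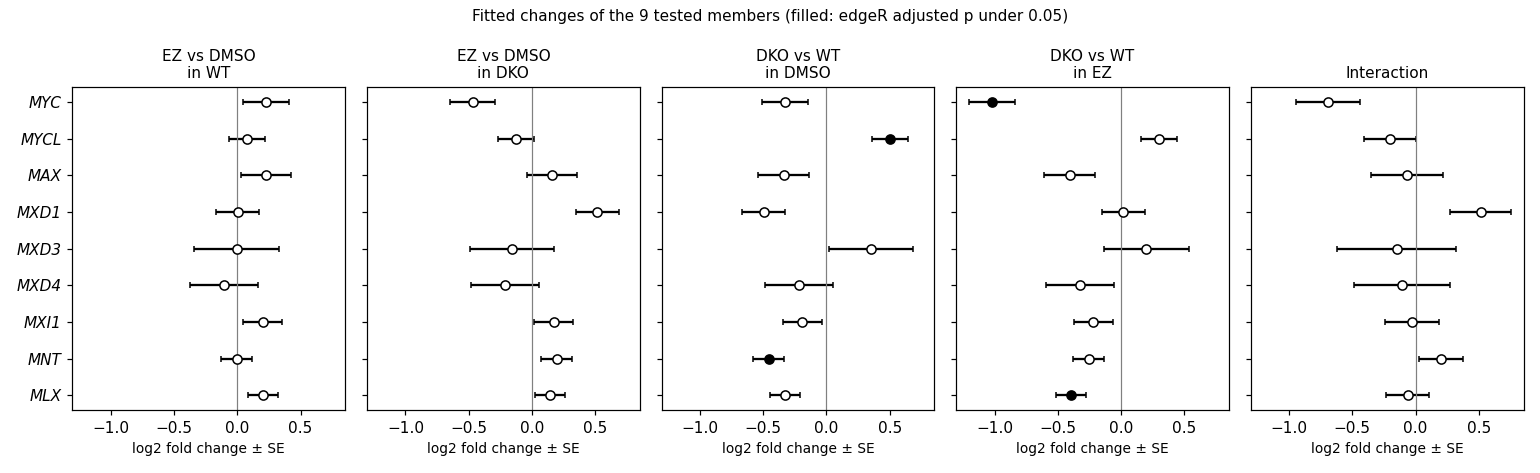
Fitted log2 fold changes ± SE (horizontal axis) of the 9 tested members in the 4 pairs of groups and the interaction, filled where the edgeR adjusted p was under 0.05. The 4 filled points are MYCL (0.50) and MNT (-0.46) in DMSO and MYC (-1.02) and MLX (-0.39) in EZ.

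Genes whose levels followed MYC most closely over the 16 libraries were ribosomal protein genes. Among 14359 other protein-coding genes the highest Pearson r of log2 CPM with MYC was 0.924 for RPL3, 0.917 for RPL38 and 0.916 for RPL7A. For MYCL, the member with the largest change in DMSO, it was 0.877 for NPR1, 0.875 for SLC25A35 and 0.872 for SVEP1. These values describe 16 libraries that differ in genotype, drug and depth, and each pair of genes was read in the same libraries. Ribosomal protein genes, NPM1 and RBBP4 have near-identical pseudogene copies that could take some of their reads, so their values are uncertain.

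Some MYC targets in ribosome biogenesis were lower in DKO cells. In DMSO 0 of 21 were higher and 5 lower, where 9.7% of all genes were lower, with a median of -0.21 beside -0.06 over all genes. In EZ 0 of 21 were higher and 9 lower, where 11.4% of all genes were lower, with a median of -0.41 beside -0.01. The 9 were NOP16, MYBBP1A, PES1, NOP56, RRP9, POLR1B, BYSL, WDR43 and DKC1. NOP16, a nucleolar protein of large-subunit assembly, fell from 23.3 ± 3.87 CPM in WT EZ to 12.7 ± 2.01 in DKO EZ, a log2 change of -0.87 ± 0.18 (edgeR adjusted p = 0.00268). MYBBP1A, a nucleolar protein named for binding MYB, fell from 134 ± 14.8 to 76.7 ± 9.30 CPM, a change of -0.81 ± 0.12 (edgeR adjusted p = 1.78e-04).

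The size of these counts depended on single libraries and on the scaling. Leaving out 1 library gave 1 to 4 lower calls in DMSO, with 1 without WT DMSO replicate 1, and 5 to 10 in EZ, with 5 without WT EZ replicate 1, 2 or 4 or DKO EZ replicate 1. With library totals 1 passed in DMSO and 3 in EZ, the medians were 0.00 and -0.16, and those of all genes 0.14 and 0.23. 

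With EZ in DKO cells 17 of the 21 ribosome biogenesis targets had negative changes (median -0.17), and edgeR called 0, with 3 at an unadjusted p under 0.05 and 0 in DESeq2. With the block within genotype 3 passed, in a fit that called 7.75% of all genes. FBL, the methyltransferase of box C/D snoRNPs, gave -0.62 ± 0.12 in that fit (edgeR adjusted p = 0.00826), PES1 -0.43 ± 0.08 (0.00768) and NPM1 -0.41 ± 0.09 (0.0177). EZ in WT called 0 of 21 (median 0.03), with 0 at an unadjusted p under 0.05 and 0 in DESeq2.

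MYC targets in metabolism and growth included 15 tested genes of 16. In DMSO 2 were lower in DKO, SRM and IMPDH2, and 0 higher, beside 9.7% of all genes lower. Leaving out WT DMSO replicate 1 ended the call of SRM, at an edgeR adjusted p of 0.0757, and leaving out any 1 of 6 libraries ended that of IMPDH2 (up to 0.161). In EZ 3 were lower, with GART added, and 0 higher, beside 11.4% lower, with a median of -0.25. GART was lost without any 1 of 10 libraries (up to 0.212). IMPDH2, an enzyme of guanine nucleotide synthesis, fell from 430 ± 62.2 CPM in WT EZ to 200 ± 41.2 in DKO EZ, a log2 change of -1.10 ± 0.17 (edgeR adjusted p = 1.91e-04). SRM, which makes spermidine, fell from 95.0 ± 17.0 to 49.8 ± 10.0 CPM, a change of -0.93 ± 0.16 (edgeR adjusted p = 5.54e-04). With library totals 1 of the 15 was higher and 2 lower in EZ, and 2 were higher and 0 lower in DMSO.

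ODC1, the first enzyme of polyamine synthesis and a classical MYC target, was the only listed target called for the drug in DKO. That comparison called 1.48% of all genes. ODC1 fell from 324 ± 39.7 CPM in DKO DMSO to 184 ± 39.0 in DKO EZ, a log2 change of -0.81 ± 0.16 (edgeR adjusted p = 0.0171). Leaving out DKO DMSO replicate 1, 2 or 3 or DKO EZ replicate 1 or 4 ended the call, with adjusted p-values up to 0.0760. In WT the mean level was 343 ± 74.8 CPM in DMSO and 236 ± 6.28 in EZ, a change of -0.54 ± 0.16 that did not pass (edgeR adjusted p = 0.0765) and passed with the block within genotype (0.0214), as did the mitochondrial chaperonin gene HSPE1, which was higher in EZ (0.35 ± 0.10, 0.0402). That blocked fit called 12.1% of all genes in WT.

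Of 3 remaining partners 1 was lower in DKO in DMSO, where 9.7% of all genes were lower, and 2 in EZ, where 11.4% were lower. With upper quartiles, and with library totals, 1 was lower in each comparison. MGA, a large MAX-binding repressor of germline genes, was lower in DKO cells with and without the drug. Its level was 281 ± 19.0 CPM in WT DMSO and 191 ± 6.84 in DKO DMSO, and 297 ± 15.9 and 202 ± 3.03 in the EZ groups. The log2 changes were -0.55 ± 0.08 in both, with edgeR adjusted p-values of 1.68e-04 and 1.59e-04, and the groups did not overlap. Of all genes 10.9% were lower without overlap in DMSO and 13.4% in EZ. MLXIP, the glucose-sensing partner of MLX, changed by -0.35 ± 0.11 in EZ (edgeR adjusted p = 0.0278), a call lost on leaving out any 1 of 7 libraries (p up to 0.125). MLXIPL did not pass, at 0.48 ± 0.23 in DMSO and 0.43 ± 0.23 in EZ. Of the 2 MondoA targets, the arrestin-domain gene ARRDC4 fell in DMSO by 0.84 ± 0.19 on the log2 scale (edgeR adjusted p = 0.00497). TXNIP gave -0.58 ± 0.30 and did not pass. In EZ ARRDC4 gave -0.41 ± 0.19 (edgeR adjusted p = 0.151) and TXNIP -0.48 ± 0.29 (0.293), and neither passed.

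Of 10 MYC coactivators, 1 was higher and 1 lower in DMSO, where 18.6% of all genes were called, and 1 was higher and 2 lower in EZ, where 20.7% were called. ZBTB17 (MIZ1), through which MYC represses genes, changed by 0.75 ± 0.12 without the drug and 0.50 ± 0.12 with it (edgeR adjusted p = 3.26e-04 and 0.00660). TRRAP, the acetyltransferase scaffold that MYC recruits, changed by -0.46 ± 0.11 and -0.50 ± 0.11 (edgeR adjusted p = 0.00562 and 0.00322). RUVBL2 was the second lower gene in EZ, at -0.45 ± 0.15 (edgeR adjusted p = 0.0409, and up to 0.226 with 1 library left out).

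Of 9 SIN3-HDAC genes, RBBP4 was higher (0.56 ± 0.16) and SIN3B lower (-0.31 ± 0.10) in DMSO, with edgeR adjusted p-values of 0.0238 and 0.0402. In that comparison 18.6% of all genes were called. With upper quartiles 2 of the 9 were higher and 0 lower, and with library totals 4 were higher and 0 lower. RBBP4 overlapped between groups and was lost without any 1 of 4 libraries (up to 0.0858), and SIN3B without any 1 of 12 (up to 0.133). In EZ 0 passed in edgeR, with 2 at an unadjusted p under 0.05 and 0 in DESeq2. Of 10 genes of MYC protein turnover 1 was called in DMSO, where 18.6% of all genes were called. The deubiquitinase gene USP28 was higher (0.37 ± 0.11, edgeR adjusted p = 0.0217), a call lost without WT DMSO replicate 3 or DKO DMSO replicate 2 (up to 0.0778). In EZ 0 passed in edgeR, with 2 at an unadjusted p under 0.05 and 1 in DESeq2. With library totals ZBTB17 was among 2 higher coactivators in each comparison and 0 were lower. EZ against DMSO called 0 genes of the partner, MondoA target, corepressor, coactivator and turnover lists in edgeR in either genotype. At an unadjusted p under 0.05 there were 1 partner in each genotype, 1 corepressor and 1 turnover gene in DKO and 0 others, and DESeq2 called 1 partner in WT. The block within genotype called that partner, MLXIP, higher in WT at 0.35 ± 0.10 (edgeR adjusted p = 0.0362).

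**Figure D5:**
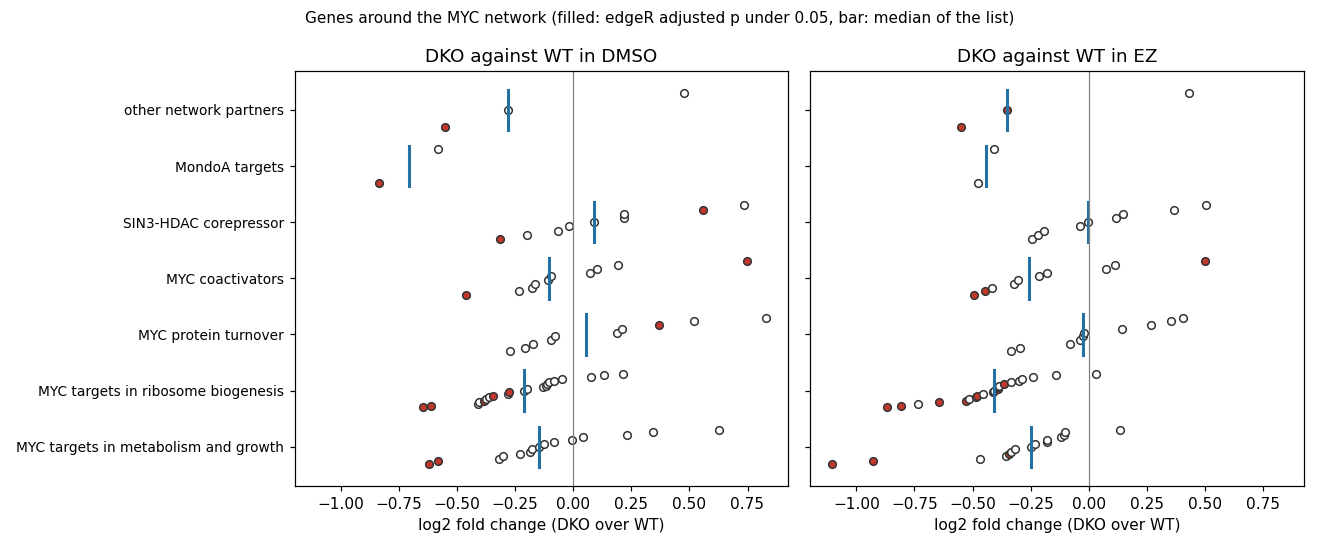
Log2 fold change of DKO over WT (horizontal axes) for each tested gene of 7 lists around the network, in DMSO and in EZ, filled where the edgeR adjusted p was under 0.05, with a bar at the median of each list. The ribosome biogenesis targets lie left of 0 in 18 of 21 cases in DMSO and 20 of 21 in EZ.

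Markers of cell state moved between the same groups. All 8 proliferation markers had positive changes in DKO against WT (medians 0.85 in DMSO and 0.49 in EZ) and negative changes with EZ (medians -0.49 in WT and -0.76 in DKO), and 0 of 8 passed in any comparison in edgeR. At an unadjusted p under 0.05 there was 1 in DKO against WT in DMSO and 1 in EZ, and DESeq2 called 1 in DMSO. Their summed level ran from 182 to 1067 CPM in WT and 637 to 1512 CPM in DKO libraries with DMSO, and from 134 to 598 and 267 to 1005 CPM with the drug. The list and MYC thus had opposite signs in DKO against WT and the same sign for EZ in DKO, and the part of proliferation in the MYC values was not tested. Among the luminal markers KLK3, TMPRSS2 and FOLH1 were lower in DKO in both comparisons, FOLH1 with calls lost on leaving out single libraries (edgeR adjusted p up to 0.116).

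Among the neuroendocrine markers ENO2 was higher in DKO in both comparisons. The list of 5 summed to 16.0 to 43.1 CPM in WT and 63.5 to 113 CPM in DKO libraries, mostly ENO2. The ENO2 mean was 66.2 CPM in DKO DMSO and 89.15 in DKO EZ. SYP means went the other way, at 1.55 (WT) and 1.46 CPM (DKO) in DMSO and 1.10 and 0.866 CPM in EZ. CHGA means were higher in DKO, at 0.40 (WT) and 0.76 CPM (DKO) in DMSO and 0.37 and 0.66 CPM in EZ. The 3 basal markers summed to at most 1.47 CPM in any library. The 3 endothelial markers summed to 2.81 to 17.3 CPM, mostly VWF, and the 3 fibroblast markers to 13.9 to 43.8 CPM, mostly COL1A1, which was higher in DKO. DCN was at 0 in both WT groups, CD3E in all 4 groups, and INSM1 in both WT groups. Comparisons here share groups (DKO EZ enters 2 of them), so their values are set side by side and not counted as separate evidence.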

How the data were processed

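Total RNA libraries of 16 samples were analysed, grouped and numbered by their titles. The authors deposited whole-number read counts per Ensembl gene, 1 column per library. The submitters' processing notes name STAR 2.7.3a and GRCh38 without a role. Which tool counted the reads, with what strand setting and annotation, is not given in the sources used here, so reads of overlapping or antisense genes may be mixed. Gene symbols were found for 60357 of 60676 identifiers, and positions come from GENCODE v29 on GRCh38, which held 58503.

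The analysis used R 4.3.3 and edgeR 4.0.16: filterByExpr (count minimum 10, total minimum 15; 21810 genes kept), TMM scaling, 1 mean per group over all 16 libraries, and the robust quasi-likelihood F-test with Benjamini-Hochberg adjustment at 0.05. The biological coefficient of variation was 28.1% (common dispersion 0.0787). Counts of replicates differed well beyond sampling noise (chi-square per degree of freedom 5.16 to 92.7), so none was merged. Floors of 3 counts over a group cover counting error only. Scripts were tested on simulated counts.

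Deviations from group means of libraries with the same replicate number correlated by 0.326 to 0.625 between WT DMSO and WT EZ and by 0.403 to 0.664 between DKO DMSO and DKO EZ. Each DKO DMSO library correlated most with the DKO EZ library of its own number. In WT this failed for DMSO replicate 2, which correlated most with EZ replicate 3. All same-numbered correlations within a genotype exceeded 0.1, so numbers were taken to pair libraries there. Across genotypes such correlations did not exceed 0.1 in every case (-0.067 and -0.052 for replicate 2 of the DMSO and EZ groups).

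The alternatives were upper-quartile scaling, library totals, DESeq2 1.42.0, no filter on low counts, a fit of the compared groups alone, a replicate block with and without genotype, the RN7SL1 set as a covariate, WT EZ replicate 1 and DKO EZ replicate 1 left out together, and each library left out. The members, the lists and the rule for named genes were chosen with earlier results of these data known. The rule named all members and, per list and comparison, up to the 2 highest and 2 lowest changes past the threshold with at least 1 CPM. The other ribosome biogenesis genes named, GART, HSPE1, NPM1, FBL and PES1 were named after their values were seen. The lists, beside those described, held 3 basal, 5 neuroendocrine, 3 leukocyte, 3 endothelial and 3 fibroblast markers, and all 114 list entries matched. Results for some marker genes are not reported here.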

Additional observations from a re-analysis of the deposited data

Results flagged for a closer look

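In 3 of 36 sets of 4 libraries, taken gene by gene and group by group over the 9 detected members, 1 library stood apart from the other 3. Chance flags about 1 in 20 such sets. MAX was at 83.8 CPM in WT DMSO replicate 4, where the other 3 libraries held 51.3 to 54.1. MXD1 was at 40.9 CPM in the same library, where the others held 24.6 to 26.5. That library also had the lowest proliferation mean of its group (4.06 log2 CPM). MYCL was at 18.3 CPM in WT EZ replicate 1, where the others held 12.5 to 13.3, and this library had the lowest proliferation mean of all 16 (3.53 log2 CPM). What links these values was not tested.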

How the results depend on the processing

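The drug in WT and the interaction moved 0 members past the threshold under every alternative run. For the drug in DKO 1 member (MYC) passed with the replicate block and 1 with the replicate block within genotype, and 0 otherwise. For DKO against WT in DMSO 2 members passed, 3 with upper quartiles (MLX added), 1 with library totals (MYCL), 0 without a filter, 1 with only the compared groups, and 5 with the replicate block (MYCL, MAX, MXD1, MNT and MLX). For DKO against WT in EZ 2 passed (MYC and MLX). With library totals they were MYC and MYCL, with the RN7SL1 set MNT was added, and MYC alone passed without a filter and on leaving out replicate 1 of both EZ groups. Leaving out 1 library gave 1 to 4 in DMSO and 1 to 2 in EZ. MYC in EZ passed in all of these fits, from -1.18 to -0.76. The replicate block also called MAX in EZ (-0.41, edgeR adjusted p = 0.00590), and blocks changed no other call of a member. Across genotypes within a treatment, same-numbered libraries correlated by 0.229 to 0.674 for replicates 1, 3 and 4 but not for replicate 2, so the numbers were not taken to pair libraries there.

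Signs of small changes turned. For the drug in WT, MYCL was -0.011 with library totals and -0.050 without the 2 EZ libraries named. MXD1 was -0.048 with upper quartiles, -0.056 with totals, -0.039 without a filter, -0.0020 with the compared groups, -0.066 without those 2 libraries and -0.0042 in DESeq2. MXD3 was 0.10 with the replicate block, 0.11 with the block within genotype, 0.032 with the RN7SL1 set and 0.12 without the 2 libraries, and MXD4 was 0.064 without them. For the drug in DKO, MXD4 was 0.0074 without them. With library totals MXI1 was 0.026 in DKO against WT in DMSO and 0.033 in EZ, and MNT 0.00026 in EZ. The interaction of MXI1 was 0.023 with upper quartiles and 0.0071 with totals, and that of MLX 0.0072 without the 2 libraries. The cause was not tested.

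With 1 library left out, changes whose sign turned ranged as follows. For the drug in WT they were -0.050 to 0.21 for MYCL, -0.075 to 0.23 for MXD1, -0.25 to 0.30 for MXD3, -0.20 to 0.064 for MXD4 and -0.069 to 0.11 for MNT. For the drug in DKO they were -0.33 to 0.017 for MXD3 and -0.40 to 0.0073 for MXD4, and for DKO against WT in EZ -0.068 to 0.11 for MXD1. Interactions ran from -0.30 to 0.086 for MAX, -0.46 to 0.086 for MXD3, -0.30 to 0.094 for MXD4, -0.20 to 0.10 for MXI1 and -0.15 to 0.0096 for MLX.

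Over all genes the drug in WT called 724, but 436 without a filter, 299 with only its groups, 1724 and 2641 with the replicate block without and with genotype, and 1239 in DESeq2. In DKO it called 322, but 167 without a filter, 1104 and 1691 with the blocks, 519 with the RN7SL1 set and 806 in DESeq2. Leaving out 1 library gave 313 to 1094 in WT and 89 to 461 in DKO. The interaction called 0, but 1 and 39 with the blocks and 10 in DESeq2. Depth limits MYCN, which had 3 counts in all, and MXD3, which had as few as 37 counts in a library.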
